A study of Mus musculus with 4 samples.

Results

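The transcripts of 10 mouse solute carriers that move bile acids, prostaglandins and other organic anions were followed through 4 libraries, of hepatocytes in 3D culture and of hepatocyte-derived biliary cells in 2D culture. The members were picked by gene symbol from families Slc10, Slco and Slc51, and all 10 were found among the 24493 symbols of the table. The groups are called Hep_3D (n = 2) and Bil_2D (n = 2) for their cell state and culture format. All 4 libraries came from untreated cells of C57BL/6 hepatocyte origin. Clone 15C7 gave replicate 1 and clone 19H5 gave replicate 2 of both states, so each state rested on 2 clones. The age of the source animals is not stated in the labels, and cell state and culture format cannot be told apart, because they changed together in every library.

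Hepatocytes take up bile acids from sinusoidal blood across their basolateral membrane and secrete them into the canaliculus through ATP-driven pumps. Slc10a1 (NTCP) is the sodium-dependent bile acid uptake carrier of that membrane, and Slco1a1, Slco1a4, Slco1b2 and Slco2b1 belong to the sodium-independent organic anion transporting polypeptides (OATPs), which take up bile acids, bilirubin, hormone conjugates and drugs. Cholangiocytes and enterocytes of the ileum instead take up bile acids through the apical carrier Slc10a2 (ASBT) and return them to the blood through the dimer of Slc51a and Slc51b (OST-alpha and OST-beta). Slco2a1 is the prostaglandin transporter, and Slco3a1 is a widely expressed OATP that also carries prostaglandins.

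Promoter windows are shown for carriers whose transcripts differed between the states (Slc10a1, Slco1b2, Slco2a1) and for the apical carrier Slc10a2, which was detected in every library. The sequences are those of RefSeq on GRCm38.p6, the assembly that mm10 names, and they run 5′ to 3′ on the gene's strand from 250 bases before the start site to 50 after it. Capitals mark AGGTCA (the core hexamer of nuclear receptor sites) and GTTAAT (a hexamer of homeodomain factor sites), each on either strand.
Slc10a1 chr12:80968656-80968955 (minus strand): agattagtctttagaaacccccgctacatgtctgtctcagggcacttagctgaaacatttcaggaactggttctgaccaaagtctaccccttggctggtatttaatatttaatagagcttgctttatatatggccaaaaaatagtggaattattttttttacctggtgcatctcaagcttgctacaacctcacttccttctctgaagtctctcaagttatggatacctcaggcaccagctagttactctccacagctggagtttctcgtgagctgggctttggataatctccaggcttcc
Slc10a1 chr12:80968030-80968329 (minus strand): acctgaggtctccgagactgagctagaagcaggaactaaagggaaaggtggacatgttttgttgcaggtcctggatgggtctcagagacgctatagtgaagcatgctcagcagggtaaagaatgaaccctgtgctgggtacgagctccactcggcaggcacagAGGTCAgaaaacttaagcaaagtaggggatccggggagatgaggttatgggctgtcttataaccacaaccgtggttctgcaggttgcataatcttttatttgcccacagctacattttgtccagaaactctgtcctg
Slco1b2 chr6:141629268-141629567 (plus strand): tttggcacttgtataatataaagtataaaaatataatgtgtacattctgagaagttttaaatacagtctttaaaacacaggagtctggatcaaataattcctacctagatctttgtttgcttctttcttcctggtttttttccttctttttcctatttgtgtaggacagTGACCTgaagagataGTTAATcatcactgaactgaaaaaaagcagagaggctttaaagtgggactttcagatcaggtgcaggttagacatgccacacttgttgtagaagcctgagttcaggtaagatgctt
Slco2a1 chr9:103008237-103008536 (plus strand): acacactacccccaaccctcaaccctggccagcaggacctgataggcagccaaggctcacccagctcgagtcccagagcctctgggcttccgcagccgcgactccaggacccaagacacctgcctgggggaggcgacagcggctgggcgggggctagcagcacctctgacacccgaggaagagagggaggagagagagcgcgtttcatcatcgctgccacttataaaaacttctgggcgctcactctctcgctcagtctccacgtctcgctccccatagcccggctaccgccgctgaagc
Slc10a2 chr8:5105238-5105537 (minus strand): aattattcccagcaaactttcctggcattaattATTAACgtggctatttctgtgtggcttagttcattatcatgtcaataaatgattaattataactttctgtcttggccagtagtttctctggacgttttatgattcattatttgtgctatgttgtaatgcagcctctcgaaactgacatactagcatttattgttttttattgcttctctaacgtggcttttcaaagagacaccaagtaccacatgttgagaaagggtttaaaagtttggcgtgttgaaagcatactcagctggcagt

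The first Slc10a1 window and the Slco2a1 window held neither motif, and the second Slc10a1 window held AGGTCA with its first base at -87. Slco1b2 held AGGTCA on the opposite strand at -81 and GTTAAT at -66, and Slc10a2 held GTTAAT on the opposite strand at -217. A promoter window was given for 9 of the 10 carriers (12 windows, none for Slco3a1). AGGTCA was in a window of 5 of those 9 genes and GTTAAT in a window of 2, while TGTTTAC, the forkhead core, was in none. Among all 32851 windows of 300 bases in the table, 16.3% held AGGTCA, 7.1% held GTTAAT and 3.65% held TGTTTAC. These shares are per window while the carriers were counted per gene, and Slc10a1 and Slco2b1 had several windows each. A match only describes the letters of a window. The matches in the printed windows do not overlap. The first Slc10a1 window surrounds the start of the whole gene and the second a start site inside it, and the Slco2a1 window lies inside the longer gene of the GENCODE annotation.

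Values are TPM (transcript abundance scaled to a fixed total per library), which correct for transcript length and allow levels of different genes to be compared. Every library summed to 1000000 TPM, so sequencing depth and counting error were unknown. Fold changes are Hep_3D minus Bil_2D on log2(TPM + 1), a scale that understates changes of low genes, and calls were made by limma at an adjusted p (Benjamini-Hochberg over 12336 genes) under 0.05. The 50 most abundant genes of each library took 46.6% and 48.4% of all TPM in Hep_3D against 22.4% and 24.8% in Bil_2D, and the median gene stood at -0.73. Results are therefore also given after median-of-ratios scaling, where the median gene stood at -0.02. Of the 10 carriers 6 were tested, of which 2 were called higher and 2 lower in Hep_3D on both scales. Among all genes tested 58.7% were called on the TPM scale, with 6.8% higher and 51.9% lower, and 21.4% after median-of-ratios scaling, with 11.9% higher and 9.54% lower. With clone as a replicate block the carrier calls were again 2 and 2, beside 66.1% of all genes (7.93% higher and 58.1% lower). The groups did not overlap for 4 of the 6 tested carriers, 2 above and 2 below, on either scale. Among all genes 83% did not overlap on the TPM scale (11.1% above, 71.9% below) and 68.3% after median-of-ratios scaling (33.6% above, 34.7% below). The 10 hepatocyte markers summed to 114763 and 97629 TPM in Hep_3D and to 6758 and 3590 in Bil_2D, with 9 of 10 higher and 0 lower. Of these 9, Cps1, Asgr1 and Tat reached 1 TPM in 2 libraries only through Hep_3D, so that filter favoured a rise. Of 14 biliary markers 2 were higher and 6 lower in Hep_3D on the TPM scale, and 2 and 3 after median-of-ratios scaling; 0 were higher without either Hep_3D replicate, and 3 were lower without Bil_2D replicate 2. Their sums were 13326 and 9671 TPM in Hep_3D and 6733 and 10076 TPM in Bil_2D, mostly from Spp1 (osteopontin), and without Spp1 they were 233 and 388 TPM in Hep_3D and 2557 and 3984 TPM in Bil_2D. Spp1 and Ggt1 were the 2 that were higher in Hep_3D, and Krt19, Krt7, Tspan8 and Cd24a were among the 6 that were lower. After median-of-ratios scaling Krt7 and Tspan8 lost the call (adjusted p = 0.117 and 0.0667 in limma), while Krt19, Cd24a, Spp1 and Ggt1 kept it. The duct keratin Krt19 had 1.12 and 15.9 TPM in Hep_3D against 752 and 1615 TPM in Bil_2D. The defining duct genes Cftr and Sctr did not exceed 0.089 TPM in any library, and Epcam had 1.35 and 0.439 TPM in Hep_3D against 2.59 and 0.817 TPM in Bil_2D. A bulk library cannot tell fewer expressing cells from less RNA per cell.

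**Figure D1:**
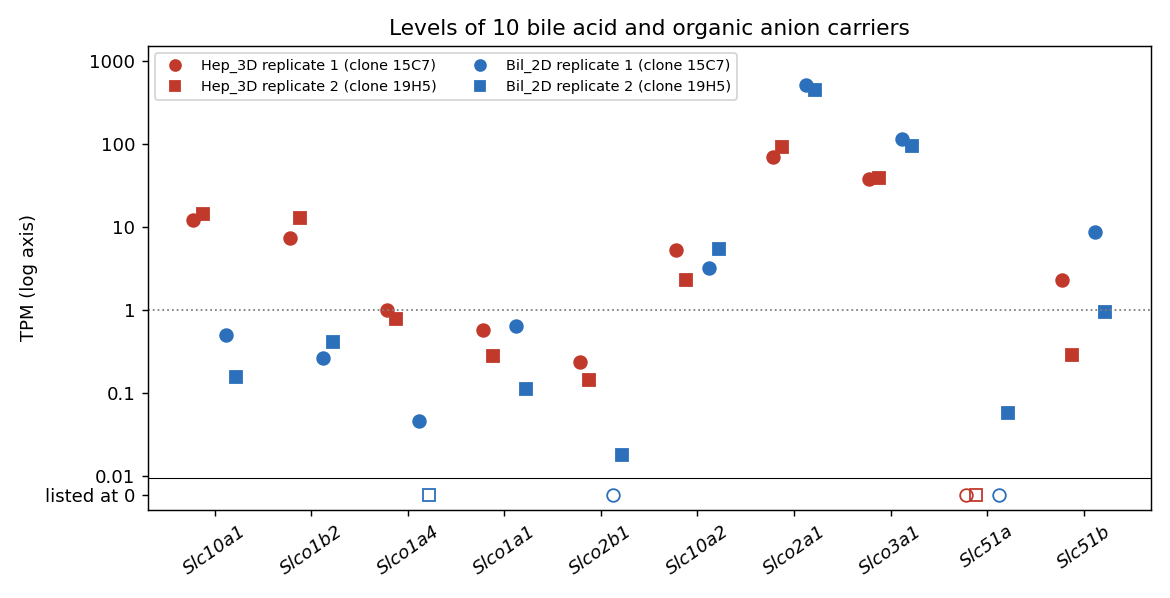
TPM of each carrier on a log axis, with Hep_3D in red left of Bil_2D in blue, circles for replicate 1 (clone 15C7) and squares for replicate 2 (clone 19H5); open symbols under the line are values listed at 0 and the dotted line is 1 TPM. Slco2a1 and Slco3a1 stand highest in every library, while Slc10a1 and Slco1b2 exceed 7 TPM in Hep_3D and stay under 0.51 TPM in Bil_2D.

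Of the 5 basolateral uptake carriers 2 were tested, and both were called higher in the hepatocyte cultures. Slc10a1 (chromosome 12, 80953183 to 80968705) had 12.1 and 14.3 TPM in Hep_3D replicates 1 and 2, against 0.506 and 0.156 TPM in Bil_2D replicates 1 and 2. The groups did not overlap, and both Hep_3D libraries were high. The mean was 13.2 ± 1.52 TPM in Hep_3D and 0.331 ± 0.248 TPM in Bil_2D (SD, n = 2 each), a ratio of means of 39.8. Slc10a1 rose with a log2 fold change of 3.42 (limma, SE 0.24, adjusted p = 0.00429), and stood at 3.89 after median-of-ratios scaling (adjusted p = 0.00341).

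Slco1b2, the mouse counterpart of the human liver OATPs OATP1B1 and OATP1B3 (chromosome 6, 141629518 to 141686646), had 7.39 and 12.9 TPM in Hep_3D, against 0.265 and 0.412 TPM in Bil_2D. Both Hep_3D libraries again stood above both Bil_2D libraries, with replicate 2 the higher in each group. The mean was 10.2 ± 3.92 TPM in Hep_3D and 0.339 ± 0.104 TPM in Bil_2D (SD, n = 2 each). Slco1b2 rose with a log2 fold change of 3.02 (limma, SE 0.32, adjusted p = 0.00598), which was 3.48 after median-of-ratios scaling (adjusted p = 0.00945). Slc10a1 and Slco1b2 reached the filter of 1 TPM in 2 libraries only through Hep_3D, so the filter itself favoured a difference in that direction. On the TPM scale both carriers kept their call whichever library was omitted. On the median-of-ratios scale, Slc10a1 lost its call without Bil_2D replicate 2 (adjusted p = 0.0528), and Slco1b2 without Bil_2D replicate 1 (0.0844) and without Bil_2D replicate 2 (0.0895), in limma fits that assume the lone sample to vary like the other group.

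The remaining 3 basolateral carriers stayed near or under 1 TPM and were not tested, because the filter asked for 1 TPM in 2 libraries. Slco1a4 (chromosome 6, 141805440 to 141856199), an OATP of liver and of the blood-brain barrier, had 1.01 and 0.791 TPM in Hep_3D, against 0.0459 TPM and a listed 0 in Bil_2D. With no filter on low values it was called higher (0.89 on the log2 scale, SE 0.10, limma adjusted p = 0.0125). That fit called 6215 genes in either direction. Slco1a1 (chromosome 6, 141907282 to 141946962), an OATP of mouse liver, had 0.584 and 0.284 TPM in Hep_3D, against 0.65 and 0.111 TPM in Bil_2D, so its groups overlapped and its clones went opposite ways. Slco2b1 (chromosome 7, 99657804 to 99711340), an OATP found in many tissues, had 0.239 and 0.144 TPM in Hep_3D, against a listed 0 and 0.0179 TPM in Bil_2D. Slco1b2, Slco1a4 and Slco1a1 lie in this order along chromosome 6, and their Hep_3D ranges did not overlap, with Slco1b2 highest and Slco1a1 lowest.

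Summed over the 5 basolateral uptake carriers, Hep_3D held 21.3 and 28.4 TPM, against 1.47 and 0.698 TPM in Bil_2D. Slc10a1 made up 56.7% and 50.2% of the sum in Hep_3D, and Slco1b2 34.7% and 45.5%. Together they held 91.4% and 95.7% there, against 52.6% and 81.5% in Bil_2D, where the sums were so small that the shares rest on values under 1 TPM. The Slc10a1 to Slco1b2 ratio was 1.64 and 1.1 in Hep_3D, and their ranges in that group overlapped.

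The most abundant carriers were the prostaglandin transporter Slco2a1 and Slco3a1, and both were lower in the hepatocyte cultures. Slco2a1 (chromosome 9, 102988712 to 103096002) had 69.5 and 90.3 TPM in Hep_3D, against 508 and 447 TPM in Bil_2D. The groups did not overlap, and by level the gene took places 1432 and 1110 of all symbols in Hep_3D, against places 308 and 336 in Bil_2D. The mean was 79.9 ± 14.7 TPM in Hep_3D and 477 ± 42.6 TPM in Bil_2D (SD, n = 2 each), which was 5.98 times higher in Bil_2D. Slco2a1 fell with a log2 fold change of -2.57 (limma, SE 0.18, adjusted p = 0.00432), or -1.76 after median-of-ratios scaling (adjusted p = 0.012). On that second scale the call was lost without Bil_2D replicate 1 (adjusted p = 0.0925) and without Bil_2D replicate 2 (adjusted p = 0.0978).

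Slco3a1 (chromosome 7, 74275419 to 74554780) had 37.5 and 38.6 TPM in Hep_3D, against 113.5 and 95.01 TPM in Bil_2D. Both Bil_2D libraries stood above both Hep_3D libraries on either scale. The mean was 38.1 ± 0.794 TPM in Hep_3D and 104 ± 13.1 TPM in Bil_2D (SD, n = 2 each). It fell with a log2 fold change of -1.43 (limma, SE 0.15, adjusted p = 0.0058), beside the median gene's shift of -0.73. After median-of-ratios scaling the value was -0.62 (adjusted p = 0.0441). With clone as a replicate block on that scale the adjusted p was 0.0512, and on that scale it was 0.123 to 0.192 when any 1 of the 4 libraries was omitted. Slco2a1 and Slco3a1 together held 78.7% and 80.6% of the summed TPM of all 10 carriers in Hep_3D, against 97.9% and 98.7% in Bil_2D.

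Slco2a1 is also a gene of vascular endothelium, and all 10 endothelial markers were under 1 TPM in every library, with summed levels of 0.0937 and 0.107 TPM in Hep_3D and 0.526 and 0.286 TPM in Bil_2D. Lyve1 and Clec4g were listed at 0 throughout. Of 9 macrophage and leukocyte markers 6 were under 1 TPM in every library, and Cd68 alone was called lower in Hep_3D on the TPM scale (0 markers after median-of-ratios scaling, or when either Hep_3D replicate or Bil_2D replicate 2 was omitted). They summed to 2.92 and 3.13 TPM in Hep_3D against 7.6 and 13.6 TPM in Bil_2D. The lysosomal gene Cd68 was highest in 3 libraries and the macrophage receptor gene Csf1r, at 1.69 TPM, in Hep_3D replicate 1. Adgre1 and Clec4f did not exceed 0.0752 TPM. Fibroblast and stellate markers summed to 180.1 and 3.69 TPM in Hep_3D and to 4.73 and 1.37 TPM in Bil_2D. Of these sums Dcn alone gave 178 TPM in Hep_3D replicate 1, and Des did not exceed 0.0263 TPM. The part of these markers in the carriers' values was not tested.

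**Figure D2:**
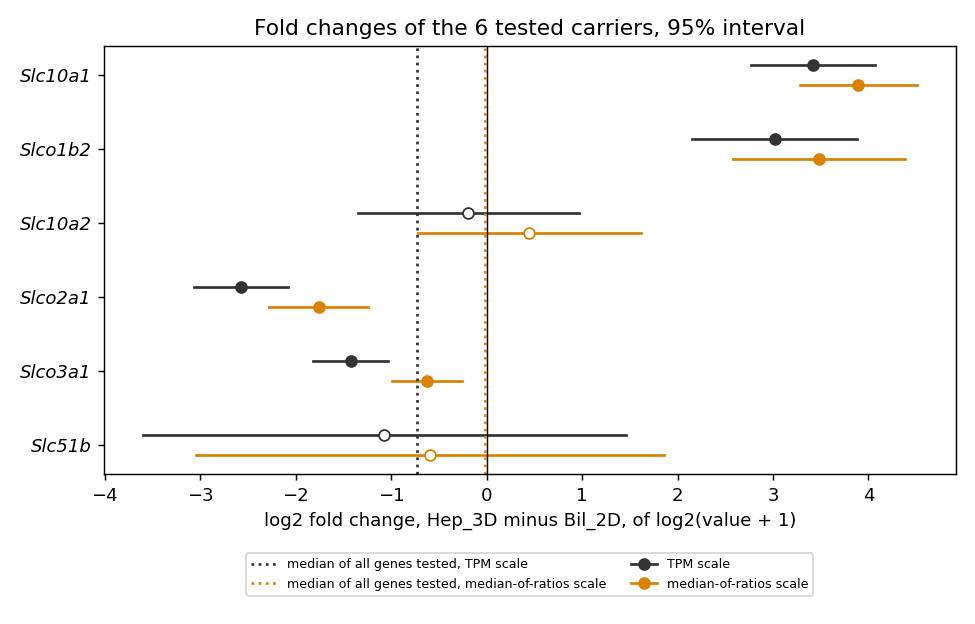
Log2 fold change of the 6 tested carriers, Hep_3D minus Bil_2D, with its 95% interval from limma, on the TPM scale (dark) and after median-of-ratios scaling (orange); filled symbols have an adjusted p under 0.05 and dotted lines mark the median of all 12336 genes on each scale. Slc10a1 and Slco1b2 lie above 3, Slco2a1 below -1.7 and Slco3a1 at -1.43 and -0.62, and the intervals of Slc10a2 and Slc51b include 0.

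The apical carrier Slc10a2 (chromosome 8, 5083219 to 5105351) was detected in every library, with overlapping ranges in the 2 states. It had 5.35 and 2.29 TPM in Hep_3D, against 3.22 and 5.46 TPM in Bil_2D. The groups overlapped, because the Hep_3D library was the higher in clone 15C7 and the lower in clone 19H5. Its log2 fold change was -0.19 (95% interval -1.34 to 0.96, adjusted p = 0.718 in limma) and 0.45 after median-of-ratios scaling (adjusted p = 0.496). The direction thus changed with the scale, and the interval does not show equal levels.

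Of the 2 subunits of the basolateral efflux dimer, Slc51b was detected in all 4 libraries and Slc51a was at or near 0 in all 4. Slc51a (chromosome 16, 32474504 to 32487879) was listed at 0 in both Hep_3D libraries, against a listed 0 and 0.0572 TPM in Bil_2D. Slc51b (chromosome 9, 65412714 to 65422955), the subunit that the dimer needs to reach the membrane, had 2.29 and 0.291 TPM in Hep_3D, against 8.65 and 0.945 TPM in Bil_2D. Bil_2D replicate 1 was the highest library and Hep_3D replicate 2 the lowest, and the groups overlapped. The log2 fold change was -1.07 (95% interval -3.60 to 1.46, adjusted p = 0.365 in limma). With clone as a replicate block the interval was -2.04 to -0.10, and the adjusted p of 0.0563 still missed the threshold. Both efflux genes overlap a coding gene on the opposite strand, and 9.13% of the 31-base words of Slc51b transcripts are shared with Rasl12 and 16.8% of those of Slc51a with Pcyt1a in the GENCODE M21 transcripts. Rasl12 had 7.55 and 3.59 TPM in Hep_3D and 27.0 and 11.9 TPM in Bil_2D, so within each state it was higher in clone 15C7, as Slc51b was. Pcyt1a had 22.1 and 17.5 TPM in Hep_3D and 28.4 and 30.5 TPM in Bil_2D, where Slc51a was at or near 0. Whether the authors' counting used strand is not given in the sources used here. The part of Rasl12 in the Slc51b values and of Pcyt1a in the Slc51a values was not tested.

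Shared sequence was small for the other carriers. Slco1b2 shared 0% of its 31-base words with any other gene, Slco3a1 0.272% and Slc10a1 3.05%. Slco1a1 and Slco1a4 shared 4.02% and 5.03%, mainly with each other and with the close paralog Slco1a5, so their separate low values are less certain. For Slco2b1 the share was 7.19%, mostly with an antisense gene that overlaps it.

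Set in order of level, Hep_3D ran Slco2a1, Slco3a1, Slc10a1, Slco1b2, Slc10a2, Slc51b, Slco1a4, Slco1a1, Slco2b1 and Slc51a. Of genes next to each other in this order, the ranges over the 2 libraries overlapped between Slc10a1 and Slco1b2, between Slc10a2 and Slc51b, and between Slc51b and Slco1a4. Bil_2D shared the first pair, followed by Slc51b, Slc10a2, Slco1a1, Slco1b2, Slc10a1, Slc51a, Slco1a4 and Slco2b1. Of neighbours in that order, the ranges overlapped between Slc51b and Slc10a2, between Slco1a1 and Slco1b2, between Slco1b2 and Slc10a1, between Slc51a and Slco1a4, and between Slco1a4 and Slco2b1. Slc10a1 and Slco1b2 thus stood in places 3 and 4 in Hep_3D and in places 7 and 6 in Bil_2D.

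The clones were compared with cell state as a term, as 15C7 minus 19H5. Of 12336 genes 0 were called by limma, which had 1 residual degree of freedom here, while 1599 (13%) had an unadjusted p under 0.05. Slc51b stood apart among the carriers, with 2.29 and 8.65 TPM in clone 15C7 (Hep_3D and Bil_2D) against 0.291 and 0.945 TPM in clone 19H5. It was higher in 15C7 in both states, by a log2 value of 1.83 (SE 0.32, unadjusted p = 0.0081), which failed correction over all genes (adjusted p = 0.289 in limma). For Slc10a1, Slc10a2, Slco2a1 and Slco3a1 the clone difference was between -0.10 and 0.17, and for Slco1b2 it was -0.45 (95% interval -1.15 to 0.26). Of all genes tested, 8.88% changed in opposite directions in the 2 clones, and of the 6 tested carriers Slc10a2 did. Within clones 15C7 and 19H5 the Hep_3D minus Bil_2D values were 3.12 and 3.72 for Slc10a1, 2.73 and 3.30 for Slco1b2, -2.85 and -2.30 for Slco2a1, and -1.57 and -1.28 for Slco3a1.

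**Figure D3:**
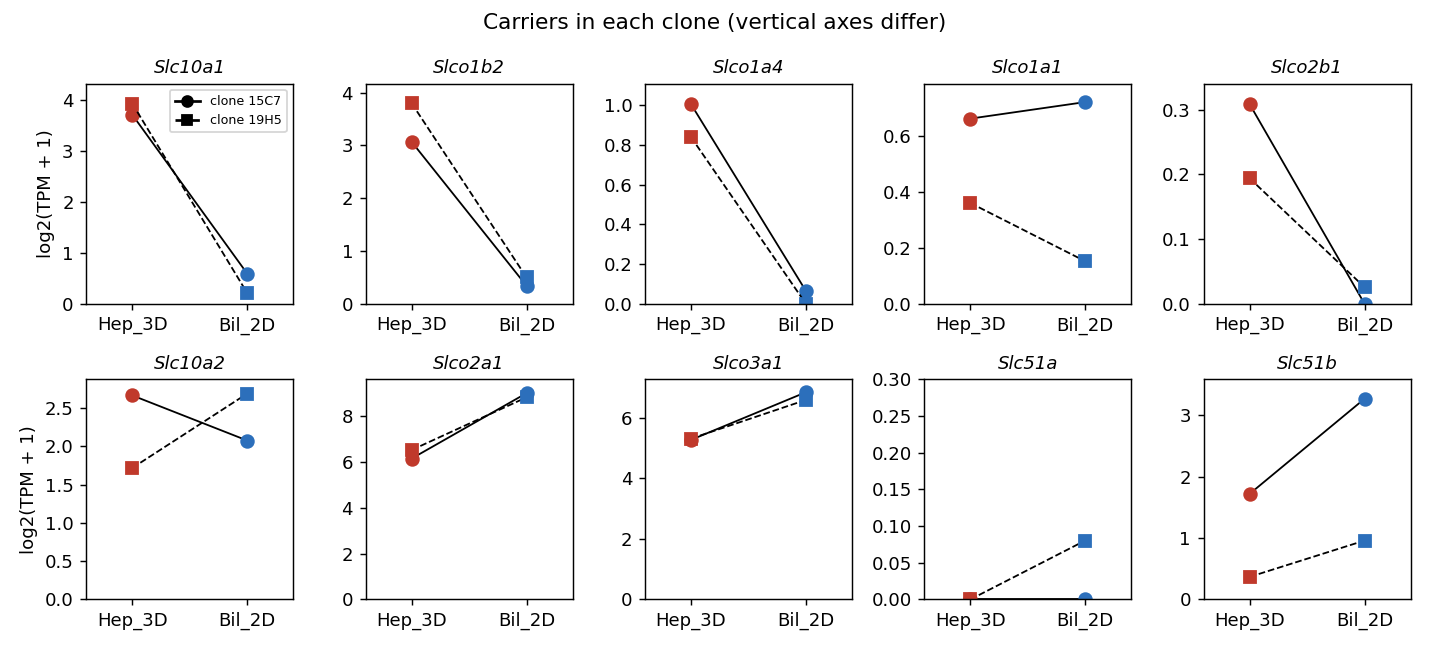
log2(TPM + 1) of each carrier in Hep_3D (red, left) and Bil_2D (blue, right), with a solid line and circles for clone 15C7 and a dashed line and squares for clone 19H5; the vertical axes differ between panels. The lines run the same way in both clones for Slc10a1, Slco1b2, Slco1a4, Slco2b1, Slco2a1, Slco3a1 and Slc51b, and opposite ways for Slc10a2 and Slco1a1.

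The genes whose values were nearest to the carriers with the largest changes were found by Euclidean distance of log2(TPM + 1) over the 4 libraries, as a description. Nearest to Slc10a1 were Rdh16f2 (distance 0.295, with 10.1 and 13.2 TPM in Hep_3D and 0.402 and 0.0731 TPM in Bil_2D), Cyp2d37-ps (0.338) and Cyp2d40 (0.471). Nearest to Slco2a1 were Hspb1, which encodes a small heat shock protein (distance 0.276, with 63.4 and 81.7 TPM in Hep_3D and 522 and 391 TPM in Bil_2D), the tropomyosin gene Tpm4 (0.315) and the chloride channel gene Clic1 (0.506).

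Other members of the same families also went both ways. Of 14 further Slco and Slc10 genes 8 were tested, of which 2 rose, 2 fell and 4 did not pass, beside 6.8% and 51.9% of all genes that rose and fell. After median-of-ratios scaling the shares of all genes were 11.9% and 9.54%. On the TPM scale the median log2 fold change was -0.55 against -0.73 for all genes. Slc10a6, a sodium-dependent carrier of sulfated steroids, had 13.4 and 8.24 TPM in Hep_3D against 0.345 and 0.316 TPM in Bil_2D and rose (log2 fold change 3.11, adjusted p = 0.00537 in limma), having passed the filter through Hep_3D only. Slco5a1, whose substrates are little known, had 0.419 and 0.295 TPM in Hep_3D against 4.57 and 4.19 TPM in Bil_2D and fell (-1.99, adjusted p = 0.00598), having passed the filter through Bil_2D only. Slc10a3, the most abundant of the list by its mean over the 4 libraries but below Slc10a6 and Slc10a5 in Hep_3D, had 4.34 and 6.08 TPM in Hep_3D against 14.4 and 17.7 TPM in Bil_2D. It fell on the TPM scale (-1.47, adjusted p = 0.00997) but did not pass after median-of-ratios scaling (adjusted p = 0.109), without Bil_2D replicate 1 (0.051) or without Bil_2D replicate 2 (0.0619). Only 1 rose when either Hep_3D replicate was omitted, and only 1 fell when either Bil_2D replicate was omitted or after median-of-ratios scaling.

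Organic ion carriers of the Slc22 family were listed for 13 genes. Of these 7 were under 1 TPM in every library, and of 5 tested 0 rose and 1 fell by limma, against 1 and 0 after median-of-ratios scaling and 1 and 0 without Bil_2D replicate 1. Over all genes tested 6.8% rose and 51.9% fell, and 11.9% and 9.54% did after median-of-ratios scaling. The classical renal and hepatic anion carriers Slc22a6, Slc22a7 and Slc22a8, named after their values were seen, did not exceed 0.08 TPM. Slc22a23, the most abundant by its mean over the 4 libraries but below Slc22a18 in Hep_3D, had 30.3 and 26.9 TPM in Hep_3D against 73.5 and 47.9 TPM in Bil_2D (log2 fold change -1.03, adjusted p = 0.0261 in limma). After median-of-ratios scaling it was -0.23 (adjusted p = 0.491), and the TPM call was lost when Hep_3D replicate 1 (adjusted p = 0.084), Hep_3D replicate 2 (0.115) or Bil_2D replicate 1 (0.0773) was omitted.

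Among 11 efflux pumps and related canalicular genes, 5 rose and 2 fell, against 5 and 1 after median-of-ratios scaling. Over all genes tested 6.8% rose and 51.9% fell, and 11.9% and 9.54% did after that scaling. Of the 5, Abcb11, Abcb4, Abcg5 and Abcg8 passed the filter through Hep_3D only, and of the 2, Abcb1a through Bil_2D only, so the filter favoured those directions. Abcb11, the bile salt export pump, had 9.17 and 9.96 TPM in Hep_3D against 0.121 and 0.159 TPM in Bil_2D and rose (log2 fold change 3.21, adjusted p = 0.00364 in limma). Abcc4, a basolateral pump of organic anions and prostaglandins, had 18.1 and 22.0 TPM in Hep_3D against 227 and 146 TPM in Bil_2D and fell (-3.12, adjusted p = 0.00513). Abcc2, the canalicular pump of bilirubin conjugates and the most abundant of the list by its mean over the 4 libraries but below Abcc4 in Bil_2D, had 88.1 and 89.7 TPM in Hep_3D against 151 and 112 TPM in Bil_2D and did not pass (-0.54, adjusted p = 0.0603), and stood at 0.27 after median-of-ratios scaling (adjusted p = 0.305), so its direction turned with the scale. Only 1 fell when Hep_3D replicate 2, Bil_2D replicate 1 or Bil_2D replicate 2 was omitted, and 4 fell with the replicate block.

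Of 15 bile acid synthesis genes tested, 9 rose and 1 fell, beside 6.8% and 51.9% of all genes. After median-of-ratios scaling the shares of all genes were 11.9% and 9.54%. On the TPM scale the median log2 fold change was 2.04 against -0.73 for all genes. Slc27a5, the bile acid CoA ligase of conjugation, had the largest rise, with 157 and 202 TPM in Hep_3D against 0.194 and 0.107 TPM in Bil_2D (7.28 on the log2 scale, adjusted p = 0.00131). Slc27a5, Slc27a2 and Akr1d1 passed the filter through Hep_3D only. Fewer than 9 rose when Hep_3D replicate 2 or either Bil_2D replicate was omitted, and 10 rose with the replicate block. Scp2, a peroxisomal thiolase and sterol carrier, was the most abundant and rose by 2.04 (adjusted p = 0.00609 in limma). Acot8, a peroxisomal thioesterase, fell by 0.97 on the TPM scale and was at -0.19 after median-of-ratios scaling (adjusted p = 0.431), and the TPM call was lost when Bil_2D replicate 1 (adjusted p = 0.0641) or Bil_2D replicate 2 (0.0612) was omitted. That left 0 genes that fell, while 2 fell when Hep_3D replicate 2 was omitted and 2 with the replicate block; 11 rose and 0 fell after median-of-ratios scaling.

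Regulators of carrier genes included nuclear receptors and liver-enriched factors, and of 18 tested 8 rose and 3 fell, against 9 and 1 after median-of-ratios scaling. The shares over all genes tested were 6.8% and 51.9%, and 11.9% and 9.54% after that scaling. Nr1i3 and Nr5a2, among the 8, passed the filter through Hep_3D only. Cebpa had 106 and 77.4 TPM in Hep_3D against 4.91 and 4.65 TPM in Bil_2D and rose by 3.99 (adjusted p = 0.00312 in limma). Cebpb, the most abundant by its mean over the 4 libraries but below Hnf4a in Hep_3D, fell by 0.96 (adjusted p = 0.00876), was at -0.14 after median-of-ratios scaling (adjusted p = 0.51) and lost its call without Bil_2D replicate 1 (adjusted p = 0.0545). Only 4 rose when either Hep_3D replicate was omitted, and 5 fell with the replicate block. Nr1h4, the bile acid receptor FXR, which induces Slc51a and Slc51b, was named after its values were seen. It had 16.5 and 48.0 TPM in Hep_3D against 36.3 and 107 TPM in Bil_2D. The adjusted p in limma was 0.248, or 0.00944 with clone as a replicate block and 0.117 with that block after median-of-ratios scaling. Within clones 15C7 and 19H5 the Hep_3D minus Bil_2D values were -1.10 and -1.14 for Nr1h4 and -1.55 and -0.59 for Slc51b. Nr1h4 was higher in clone 19H5 in both states, and Slc51b in clone 15C7. A link between Nr1h4 and Slc51b was not tested.

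Scaffolds and binding proteins of bile acid transport completed the lists, with 1 of 5 tested higher and 3 lower, against 1 and 1 after median-of-ratios scaling. Over all genes tested the shares were 6.8% higher and 51.9% lower, and 11.9% and 9.54% after that scaling. Fabp1, the liver fatty acid binding protein that also binds bile acids, had 659 and 640.2 TPM in Hep_3D against 7.08 and 2.17 TPM in Bil_2D and rose by 7.01 (adjusted p = 0.00411 in limma). Ezr (ezrin), which links membrane proteins to actin, had 28.0 and 46.2 TPM in Hep_3D against 361 and 612 TPM in Bil_2D and fell by 3.67 (adjusted p = 0.00574). Only 1 fell when any 1 of the 4 libraries was omitted, and 2 rose with the replicate block.

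**Figure D4:**
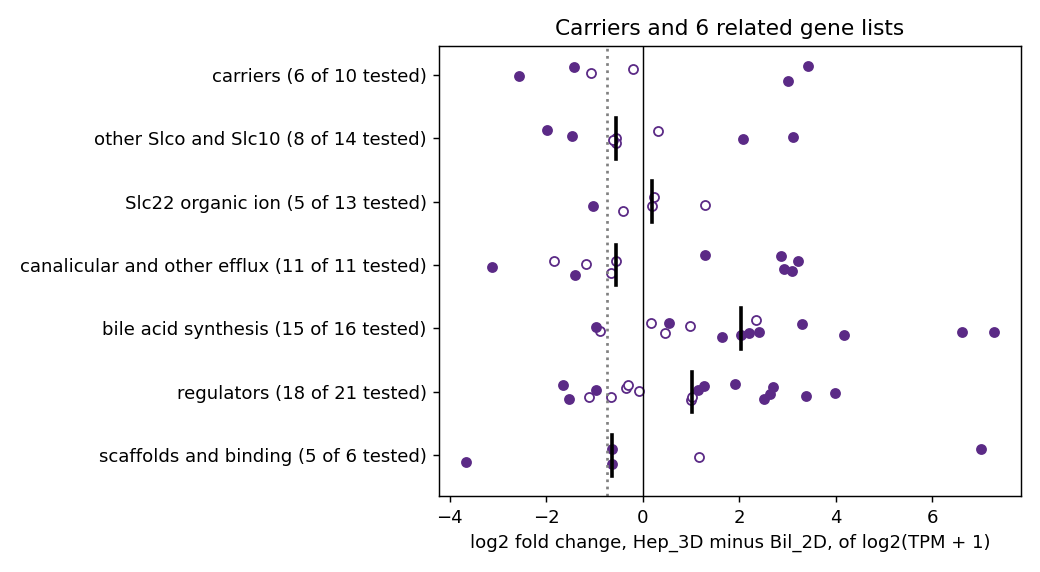
Log2 fold change, Hep_3D minus Bil_2D on log2(TPM + 1), of the tested carriers and of the tested genes of 6 related lists; filled circles have an adjusted p under 0.05, black bars are medians of the lists and the dotted line is the median of all genes, -0.73. Bile acid synthesis genes and regulators lie mostly above 0, and the carriers spread from -2.57 to 3.42.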

How the data were processed

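RNA was extracted with an RNeasy kit and sequenced as 4 libraries, per the labels' protocols. The authors deposited TPM per gene symbol, named as such in the table; Salmon, DESeq2 and mm10 are named, without versions, in the submitters' processing notes, and the annotation and the role of DESeq2 are not given in the sources used here. TPM keeps no depth, so no count test was possible.

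The filter kept 12336 genes that reached 1 TPM in 2 or more libraries, and log2(TPM + 1) values entered limma 3.58.1 in R 4.3.3 (eBayes with a trend, 2 residual and 2.29 prior degrees of freedom), Hep_3D minus Bil_2D, with Benjamini-Hochberg adjustment over all genes tested. The clones were compared with cell state as a term. Libraries were grouped by their titles. The labels name clones but nothing more on independence, so a p-value reflects only how far these samples scatter, perhaps for technical reasons; an exact permutation test of 2 against 2 cannot go below 0.333. Libraries pair by clone number, and same-clone deviations correlated at 0.414 across genes. The carriers and the lists were chosen with earlier results of these data known. Named genes outside the carriers are, for each list, the largest called rise, the largest called fall and the most abundant by its mean over the 4 libraries, of which 1 regulator is not reported here; distances were taken for the carriers with the largest rise and fall. Shared 31-base words were counted in GENCODE M21 transcripts. Of the marker symbols, 1 was matched through a synonym.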

Additional observations from a re-analysis of the deposited data

Results flagged for a closer look

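Slc10a2 moved in opposite directions in the 2 clones, and this difference was not tested, since each clone gave 1 library per state. The Hep_3D minus Bil_2D value on log2(TPM + 1) was 0.59 in clone 15C7 and -0.972 in clone 19H5. Slco1a1 did the same at levels under 1 TPM, with -0.0593 in clone 15C7 and 0.209 in clone 19H5. After median-of-ratios scaling Slco1a1 was higher in Hep_3D in both clones (0.25 and 0.35), while Slc10a2 stayed opposite (1.25 and -0.35).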

How the results depend on the processing

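Slc10a1, Slco1b2, Slco2a1 and Slco3a1 kept their direction in all 17 alternatives run for each, and the first 3 kept their call in all 13 fixed alternatives and Slco3a1 in 12. Slc10a2 was higher in 8 alternatives and lower in 9, with no call. All genes called numbered 7241, against 2642 after median-of-ratios scaling, 3194 with that scaling plus the replicate block, 3367 without the 50 most abundant genes, 2627 to 4537 without a library, and 818, 611, 340 and 188 with that scaling and without Hep_3D replicates 1 and 2 and Bil_2D replicates 1 and 2 in turn. That last set of fits was chosen after seeing the data. Carriers called higher numbered 2, and 0 to 2 in that last set. Carriers called lower numbered 2, but 1 with that scaling plus the replicate block and 0 to 1 in that last set. Over the 6 related lists 25 genes rose (18 to 25 without a library, and 17, 17, 16 and 7 in that last set). Of 12 that fell, 4 did after median-of-ratios scaling, 5 with that scaling plus the replicate block, 5 without the 50 most abundant genes, 5 to 9 without a library, and 0 in each fit of that last set. Beside these list counts, 6.8% of all genes tested rose and 51.9% fell on the TPM scale. After median-of-ratios scaling 29 genes of the lists rose, and the shares of all genes were 11.9% higher and 9.54% lower. Adding the replicate block to that scaling gave 32 genes of the lists that rose. With the replicate block on the TPM scale 8150 genes were called and the carrier calls were those of the fit without it. Slc22a23 turned to 0.0333 in that last set without Bil_2D replicate 1 (adjusted p = 0.925, limma). Slc51b, never called, was higher in 3 of 16 alternatives and lower in 13. In the fit with no filter on low values 3 carriers were called higher, the third being Slco1a4, and 2 lower. The summed uptake carriers differed by 4.6 on log2 of the sum, by 5.42 after median-of-ratios scaling and by 4.07 to 5.14 without a library. No 1 was added to these sums, so the differences are not on the scale of the carriers' fold changes. In the clone comparison 1 gene was called without the 50 most abundant genes. The cause of these changes was not tested. Depth is unknown, so values under 1 TPM carry an unknown counting error.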
